A study of Mus musculus with 3 samples.

Results

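The proteasome is the large protease that degrades proteins tagged with ubiquitin. Its core particle is a barrel of alpha rings (encoded by *Psma* genes) around beta rings (*Psmb* genes), and the proteolytic sites face the inside of the beta rings. A regulatory cap on the end of the barrel binds ubiquitinated substrates, unfolds them with a ring of ATPases (*Psmc* genes) and removes ubiquitin with the help of non-ATPase subunits (*Psmd* genes). In macrophages exposed to interferon or microbial products, catalytic beta subunits can be replaced by inducible ones, which alters the peptides made for antigen presentation.

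The constitutive genes of this complex were taken by name, as mouse gene symbols made of *Psma*, *Psmb*, *Psmc* or *Psmd* and a number, without the inducible subunits *Psmb8*, *Psmb9* and *Psmb10*. This gave 36 of the 32285 genes counted, and 35 of them had at least 20 UMIs (unique molecular identifiers, each a counted transcript) over all cells kept. They were 15 core genes (*Psma1* to *Psma8* and *Psmb1* to *Psmb7*) and 20 cap genes (*Psmc1* to *Psmc6* and *Psmd1* to *Psmd14*). The gene left out was *Psmb11*, the thymus-type beta subunit, with 2 UMIs. The least counted gene kept was *Psma8*, the testis-type alpha subunit, with 231 UMIs. *Psmd5*, *Psmd9* and *Psmd10* share the cap's gene name but act as chaperones in the assembly of its base.

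Bone marrow derived macrophages (BMDMs) were grown with L929 cell conditioned medium from marrow of female C3H/HeN mice and studied by droplet-based 3′ single-cell RNA sequencing. The mice were aged 6-8 weeks per the sample records and 6 weeks per the study's methods. UI cells were untreated (PBS) and, per the study's methods, collected at 4 hours. LP1 and LP4 cells received 1 µg/mL of lipoproteins purified from *Borrelia burgdorferi* (*Bb*LP) for 1 or 4 hours. No untreated library was collected at 1 hour, so treatment and collection time cannot be told apart in LP1 over UI. Per the study's single-cell methods, BMDMs of 3 mice were treated independently, although its general culture protocol pools marrow. Each condition is 1 library made from 3 wells, whose cells were pooled ahead of droplet capture. The spread between cultures was therefore not measured, no test between conditions was made, and every interval given covers counting error only, at the 95% level.

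Cells were kept if they had over 500 UMIs from over 500 genes and a mitochondrial share below 5%, a limit that removed 18 cells from UI, 43 from LP1 and 273 from LP4. UI then held 6071 cells, LP1 5065 and LP4 4670. The libraries differed in depth, with a median of 5133 UMIs per kept cell in UI, 9343 in LP1 and 11784 in LP4. The median mitochondrial share was 1.97%, 2.84% and 3.17% in the same order, and 3 to 9 barcode sequences of kept cells occurred in both libraries of a pair. All 9 macrophage markers searched, among them *Csf1r*, *Adgre1* and *Cd68*, were detected in every library, with summed levels of 11481, 11689 and 10542 CPM. CPM is the UMIs of a gene per 1000000 UMIs of the kept cells. Since UMIs tag 3′ ends and were not scaled by transcript length, CPM was compared between libraries and not between genes.

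Transcription of proteasome genes is known to respond to *Nfe2l1* and *Nfe2l2*, which bind the antioxidant response element (ARE), while ETS family factors bind the promoters of many housekeeping genes. RefSeq promoter windows on GRCm38.p6, from 250 bases before to 50 after the gene start, matched 28 of the 35 genes. Both strands were searched for 7 motifs. A few stretches are shown because their genes head the results or hold an ARE. Each is printed on the gene's strand with up to 10 bases on either side of the motif, which is in capitals. The ARE letters TGACNNNGC (or their reverse complement) lay in 5 of the 28 windows (17.9%), against 3781 of all 27025 genes with a window and 17.6% of those with at least 10 CPM in a library. The matches in *Psmc6* and *Psmd12* lay on the opposite strand, and the 3 on the gene's strand were:
*Psmb5*, chr14:54618024-54618052, minus strand: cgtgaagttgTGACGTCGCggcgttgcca
*Psmb6*, chr11:70525338-70525356, plus strand: ctaaagagagTGACGGAGC
*Psmd9*, chr5:123228149-123228177, plus strand: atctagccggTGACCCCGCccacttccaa
The ETS letters CCGGAAG (or CTTCCGG on the opposite strand) lay in 10 of 28 windows (35.7%), against 9.93% of all genes and 22.6% of those with at least 10 CPM. By part, 9 of 17 cap windows and 1 of 11 core windows held them. Of these 9 cap genes, 6 had a lower level in LP4 than in UI and 3 a higher one. Shown are those at either end of the cap's range, *Psmd11* and *Psmc6* among the higher and *Psmd4* as the lowest:
*Psmd11*, chr11:80428594-80428614, plus strand: gagggcgggtCTTCCGGgtgt
*Psmc6*, chr14:45329714-45329740, plus strand: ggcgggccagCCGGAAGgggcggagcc
*Psmd4*, chr3:95042723-95042749, minus strand: tacagctgttCCGGAAGctgctgcgaa
A match is a description of letters only. Of the other motifs, the GC box GGGCGG lay in 18 windows (64.3%, against 71.5% of genes with at least 10 CPM), CCAAT in 11 (39.3%, against 42.2%), the NRF1 motif in 6 (21.4%, against 12.9%), the YY1 letters AAGATGGC in 3 (10.7%, against 6.03%) and the interferon response motif in 3 (10.7%, against 4.22%).

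Proteasome genes together took a small and similar part of the RNA in all libraries. Their UMIs were 0.379% of all UMIs in UI, 0.415% in LP1 and 0.401% in LP4. In UMIs per cell this was 22.3, 43.0 and 52.7, beside the rise in depth given above. The core genes summed to 1736 CPM in UI, 2058 in LP1 and 1976 in LP4. The log2 ratio of these sums was 0.25 (0.23 to 0.26) for LP1 over UI and 0.19 (0.17 to 0.20) for LP4 over UI. The cap genes summed to 2051, 2094 and 2029 CPM. Their log2 ratios were 0.03 (0.02 to 0.04) and -0.02 (-0.03 to 0.00). The core thus stood higher in both treated libraries while the summed cap lay close to UI. TMM or median-of-ratios scaling, which sets the libraries by the bulk of the genes, raised every log2 ratio of LP4 over UI by 0.15, so the summed cap was then 0.13 above UI, and lower ratios smaller than 0.15 in size changed sign. Both comparisons share the UI library, and LP4 over LP1 shares the treated ones, so none is independent of the others. Between LP4 and UI the counting interval of the ratio crossed 0 for 7 of the 35 genes, between LP1 and UI for 11 and between LP4 and LP1 for 6. Of all 8103 genes with at least 10 CPM in a library, most had intervals off 0 too. For LP4 over UI 40.9% lay wholly above 0 and 48.5% wholly below. For LP1 over UI these shares were 31.6% and 36.7%, and for LP4 over LP1 39.2% and 48.4%.

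**Figure D1:**
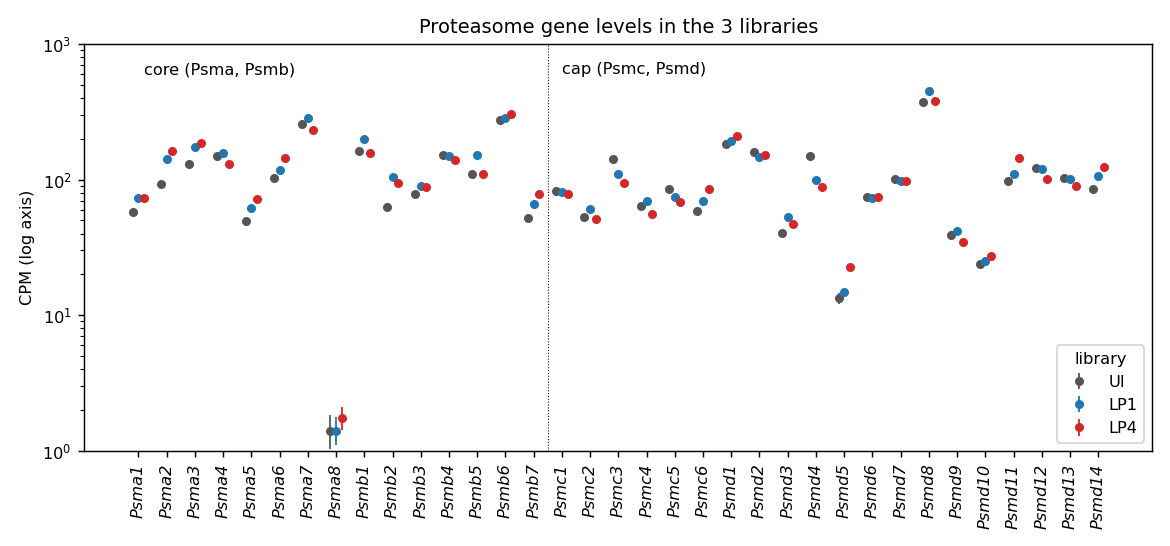
Level of each of the 35 proteasome genes in UI, LP1 and LP4, in CPM on a log axis, with exact Poisson 95% intervals, which cover counting error only. *Psma2* and *Psmd11* were highest in LP4 (164 and 145 CPM) and *Psmd4* was highest in UI (149 CPM), while *Psma8* lay near 1 CPM in every library.

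At 1 hour, most core genes stood higher than in UI. Of the 15 core genes, 14 had a ratio above 0, 12 of them with the whole counting interval above 0, and the median log2 ratio was 0.30. For the 20 cap genes the median was 0.07, with 8 intervals above 0 and 4 below. The 8103 genes that reached 10 CPM in any library had a median of -0.02, and 31.6% of their intervals lay wholly above 0 and 36.7% wholly below. A difference of at least 1.5-fold was seen for 2 proteasome genes upward and 1 downward. The background was 4.23% of the 8103 genes upward and 2.83% downward, or 6.81% and 10.9% of genes with at least 20 UMIs.

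The 2 genes past 1.5-fold upward were core genes without a proteolytic site. *Psmb2*, a noncatalytic beta subunit (ENSMUSG00000028837, chr4:126677630-126709714, plus strand), had 63.2, 104 and 94.8 CPM in UI, LP1 and LP4. The log2 ratio of LP1 over UI was 0.71 (0.64 to 0.79). *Psma2*, an alpha ring subunit (ENSMUSG00000015671, chr13:14613240-14674236, plus strand), had 92.9, 143 and 164 CPM, with a ratio of 0.62 (0.56 to 0.68) at 1 hour. The smallest ratios in the core at 1 hour were those of *Psmb4*, a noncatalytic beta subunit, at -0.01 (-0.06 to 0.04), and of *Psma8* at 0.01 (-0.53 to 0.56), whose interval is wide because it rests on 50 UMIs in UI and 74 in LP1. In the cap, *Psmd3*, a scaffold subunit of the lid, had 40.2 CPM in UI and 53.1 in LP1, a ratio of 0.40 (0.31 to 0.50). *Psmd14*, the lid's deubiquitinase, had 85.7 and 106 CPM, a ratio of 0.30 (0.24 to 0.37). The lowest cap ratios at 1 hour belonged to *Psmd4* and *Psmc3*, which are described with the values at 4 hours.

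**Figure D2:**
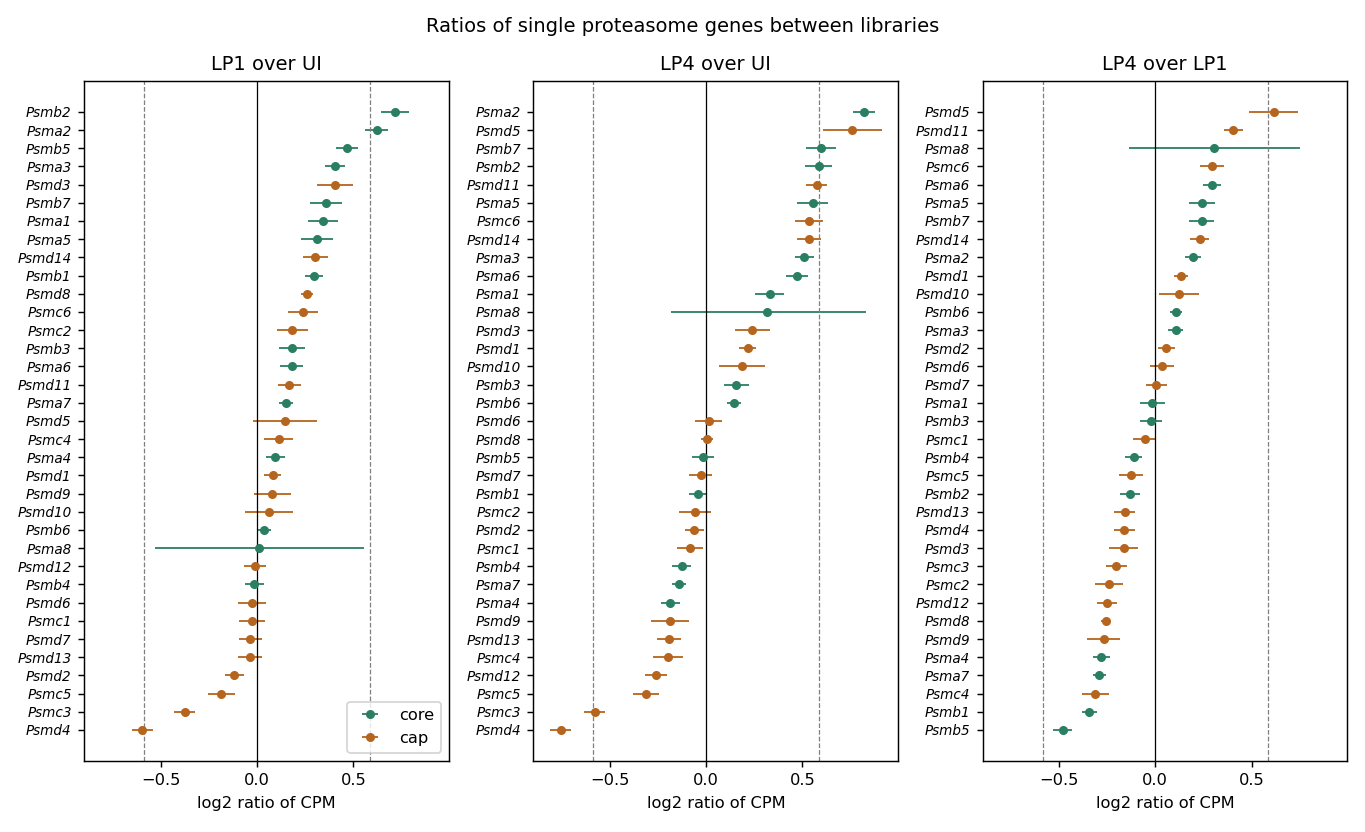
Log2 ratio of CPM for each proteasome gene in each pair of libraries, sorted by value, with exact conditional 95% intervals and dashed lines at 1.5-fold; core genes are green and cap genes brown. *Psmd4* and *Psmc3* are the lowest in both comparisons with UI, and core genes take the top 3 places for LP1 over UI.

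At 4 hours the genes had moved apart in both directions. Of the 15 core genes, 9 had intervals wholly above 0 against UI and 3 wholly below. Of the 20 cap genes, 7 lay wholly above and 9 wholly below. The background was 40.9% above and 48.5% below. The median log2 ratio was 0.31 in the core, -0.04 in the cap and -0.08 over the 8103 genes. The core median is the value of *Psma8* itself, the least counted gene, and it is 0.24 without this gene. Differences of at least 1.5-fold numbered 3 upward (*Psma2*, *Psmd5* and *Psmb7*) and 1 downward (*Psmd4*), against 20% of the 8103 genes upward and 23.1% downward, or 20.6% and 30.8% of genes with at least 20 UMIs. As shares of the 35 members these counts are 8.57% upward and 2.86% downward. Under TMM and under median of ratios 10 members passed upward, and the share of all genes that did so was not computed. The 20% and 20.6% are for plain CPM and are no background for that count. *Psmb2* lay just short of the limit with a ratio of 0.58.

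The alpha ring subunits, which form the gate of the barrel, divided into a higher and a lower set. *Psma2* had the largest ratio of all members, 0.82 (0.76 to 0.87). *Psma5* had 49.4 CPM in UI, 61.3 in LP1 and 72.5 in LP4, a ratio of LP4 over UI of 0.55 (0.47 to 0.63). *Psma3* and *Psma6* had ratios of 0.51 (0.46 to 0.56) and 0.47 (0.42 to 0.53), and *Psma1* one of 0.33 (0.25 to 0.41). Values of *Psma4* and *Psma7* lay on the other side of UI at 4 hours. *Psma4* had 148, 158 and 130 CPM, a ratio of -0.19 (-0.24 to -0.13). *Psma7* had 256, 285 and 233 CPM, a ratio of -0.14 (-0.18 to -0.10). Thus both were highest at 1 hour and lowest at 4 hours in CPM, although *Psma7*, like *Psmb4* of the beta ring, changed sign at 4 hours with the scaling shift of 0.15.

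The beta ring holds the proteolytic sites, and its 3 catalytic genes gave 3 different patterns over the libraries. *Psmb5*, the chymotrypsin-like subunit (ENSMUSG00000022193, chr14:54614119-54618022, minus strand), had 111 CPM in UI, 153 in LP1 and 109 in LP4. Its ratio was 0.47 (0.41 to 0.52) at 1 hour, -0.01 (-0.07 to 0.04) at 4 hours and -0.48 (-0.53 to -0.43) for LP4 over LP1, the lowest of all members in that comparison. *Psmb6*, the caspase-like subunit (ENSMUSG00000018286, chr11:70525367-70527858, plus strand), had 276, 283 and 306 CPM and ratios of 0.04 (0.00 to 0.07) and 0.14 (0.11 to 0.18). *Psmb7*, the trypsin-like subunit (ENSMUSG00000026750, chr2:38588036-38644087, minus strand), had 51.8, 66.4 and 78.5 CPM and ratios of 0.36 (0.28 to 0.44) and 0.60 (0.52 to 0.68). So *Psmb5* was higher than UI in LP1 only, *Psmb7* was higher in LP1 and higher still in LP4, and *Psmb6* differed little. Exons of *Psmb7* and of the cap gene *Psmc3* overlap genes on the opposite strand (*Nek6* and *Slc39a13*), and how strand was used in counting is not given in the sources used here. Exons of *Psma4*, *Psma5*, *Psmd1*, *Psmd3*, *Psmd9* and *Psmd13* have such overlaps too. The annotation names 4 processed pseudogenes of the 3 catalytic genes, and reads that such copies share may be counted uncertainly. Exons of *Psmb5* also overlap *Mir686* on the same strand. Of the noncatalytic subunits, *Psmb2* kept a ratio of 0.58 (0.51 to 0.66) at 4 hours and *Psmb3* had 0.16 (0.09 to 0.22). *Psmb1*, like *Psmb5*, was highest in LP1 over all cells, with 163, 200 and 158 CPM. *Psmb4* had 152, 150 and 139 CPM, a ratio of -0.13 (-0.17 to -0.08).

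In the ATPase ring of the cap, 5 of 6 genes had a ratio of LP4 over UI below 0 and the median was -0.14. *Psmc3* (ENSMUSG00000002102, chr2:91054009-91066369, plus strand) had 142 CPM in UI, 109 in LP1 and 95.1 in LP4, with ratios of -0.38 (-0.43 to -0.32) and -0.58 (-0.63 to -0.52). *Psmc5* had 85.0, 74.8 and 68.5 CPM, with ratios of -0.18 (-0.25 to -0.12) and -0.31 (-0.38 to -0.24). Both were lower at each time point, also with the scaling shift of 0.15, whereas *Psmc1* and *Psmc2* changed sign with it. *Psmc6* (ENSMUSG00000021832, chr14:45329788-45349705, plus strand) was the exception in the ring, with 58.4, 69.0 and 84.5 CPM and a ratio of 0.53 (0.46 to 0.61) at 4 hours. *Psmc1*, *Psmc2* and *Psmc4* had ratios from -0.20 to -0.06.

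The non-ATPase subunits held the widest spread. *Psmd4*, a receptor for ubiquitin chains (ENSMUSG00000005625, chr3:95032694-95042614, minus strand), had 149, 98.9 and 88.5 CPM in UI, LP1 and LP4. Its ratios were -0.60 (-0.65 to -0.54) and -0.76 (-0.81 to -0.70), the lowest of all members in both comparisons with UI. The UMI counts behind them were 5334, 5192 and 5437, near equal in number although LP4 held more UMIs in all. *Psmd11*, a lid subunit that contacts both core and base (ENSMUSG00000017428, chr11:80428615-80473248, plus strand), had 97.7, 110 and 145 CPM, with ratios of 0.17 (0.11 to 0.23) and 0.57 (0.52 to 0.63). *Psmd14* (ENSMUSG00000026914, chr2:61711694-61800376, plus strand) stood at 124 CPM in LP4, a ratio of 0.53 (0.47 to 0.59). The difference of *Psmd11* thus lay mainly at 4 hours, while that of *Psmd14* was 0.30 at 1 hour already. *Psmd12*, a lid subunit, had 121, 120 and 101 CPM and a ratio of -0.26 (-0.32 to -0.21). The scaffold genes of the base, *Psmd1* and *Psmd2*, had ratios of 0.21 (0.17 to 0.26) and -0.06 (-0.11 to -0.01), and exons of *Psmd1* overlap the gene model *Gm21972* on the same strand. *Psmd6*, *Psmd7* and *Psmd8* had ratios between -0.03 and 0.01, each with an interval that crosses 0. *Psmd8*, a lid subunit, was high only at 1 hour, with 376, 450 and 377 CPM.

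Among the assembly chaperones of the base, *Psmd5* (ENSMUSG00000026869, chr2:34849734-34874968, minus strand) had 13.4 CPM in UI, 14.8 in LP1 and 22.6 in LP4. Its ratio was 0.14 (-0.02 to 0.31) at 1 hour and 0.76 (0.61 to 0.91) at 4 hours, and *Psmd5* was the sole member at least 1.5-fold higher in LP4 than in LP1, at 0.61 (0.49 to 0.74). No member was that much lower in LP4 than in LP1, where 16.3% of the 8103 genes were higher and 18.5% lower by this fold (18.8% and 25.3% of genes with at least 20 UMIs). *Psmd9* and *Psmd10* had ratios of LP4 over UI of -0.19 (-0.29 to -0.09) and 0.18 (0.07 to 0.31). Between the treated libraries the medians were -0.01 for the core, -0.09 for the cap and -0.07 for all 8103 genes, with 13 member intervals wholly above 0 and 16 wholly below, against 39.2% and 48.4% of the 8103 genes.

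The inducible catalytic genes were set beside the constitutive ones, as the log2 ratio of standard to inducible UMIs within each library. This ratio depends on how each gene is captured, so it was read only as a difference between libraries. *Psmb9* had 17.8, 32.2 and 52.3 CPM in UI, LP1 and LP4, with log2 ratios over UI of 0.85 (0.72 to 0.99) and 1.55 (1.43 to 1.68). The ratio of *Psmb6* to *Psmb9* was accordingly 3.95 in UI, 3.14 in LP1 and 2.55 in LP4. *Psmb8* had 141, 165 and 154 CPM, and *Psmb5* over *Psmb8* was -0.35, -0.11 and -0.49. *Psmb10* had 85.5, 87.0 and 85.8 CPM, and *Psmb7* over *Psmb10* was -0.72, -0.39 and -0.13. The 3 pairs thus did not shift together: at 4 hours the first had moved toward the inducible gene by 1.41, and the third toward the standard gene by 0.59. The difference for *Psmb5* over *Psmb8* was -0.14.

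**Figure D3:**
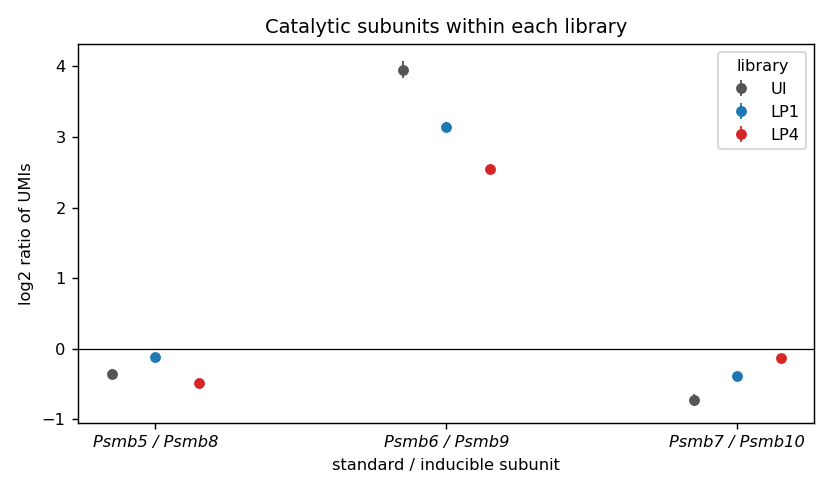
Log2 ratio of UMIs of each standard catalytic gene to its inducible replacement within UI, LP1 and LP4, with exact conditional 95% intervals that cover counting error only. *Psmb6* over *Psmb9* stood at 3.95, 3.14 and 2.55, while *Psmb7* over *Psmb10* went from -0.72 to -0.13.

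Other genes of the pathway were described from lists chosen by function. Of the 2 cap subunits whose symbols lie outside the name pattern, *Sem1*, a small lid subunit, had 146, 225 and 388 CPM in UI, LP1 and LP4, a ratio of LP4 over UI of 1.41 (1.37 to 1.46). *Adrm1*, a ubiquitin receptor like *Psmd4*, had 59.7, 45.4 and 45.7 CPM, a ratio of -0.38 (-0.47 to -0.30). The levels of *Psmd4* and *Adrm1* were thus lower in LP1 and LP4 than in UI. Of 5 activators and inhibitors, 2 were at least 1.5-fold higher in LP4 than in UI, where 20% of the 8103 genes were: *Psme2* (95.4, 127 and 155 CPM), a subunit of the interferon-inducible activator, and *Psme4* (104, 112 and 166 CPM), which encodes a nuclear activator. *Psme1*, the partner of *Psme2* in that activator, had 200, 139 and 141 CPM, a ratio of -0.50 (-0.55 to -0.46). *Psme3* and the inhibitor *Psmf1* had ratios of 0.39 and -0.39.

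Of 5 chaperones of core assembly, 2 were at least 1.5-fold lower in LP4 than in UI (*Psmg4* at -0.97 and *Psmg2* at -0.88) and 2 higher (*Psmg3* at 0.80 and *Psmg1* at 0.60), against 23.1% and 20% of the 8103 genes, or 30.8% and 20.6% of genes with at least 20 UMIs. *Pomp*, which guides beta ring maturation, had 264, 275 and 210 CPM, a ratio of -0.33 (-0.37 to -0.29). Chaperones that act in the same pairs (*Psmg1* with *Psmg2*, *Psmg3* with *Psmg4*) thus lay on opposite sides of UI. *Ubb*, which encodes ubiquitin, had 778, 803 and 489 CPM, a ratio of -0.67 (-0.69 to -0.64), so it was near UI at 1 hour and lower at 4 hours. *Rps27a*, which encodes ubiquitin fused to a ribosomal protein, had a ratio of -0.33 (-0.35 to -0.32).

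Among enzymes bound to the proteasome, *Ube3c*, a ubiquitin ligase, had a ratio of LP4 over UI of 0.56, while the deubiquitinases *Usp14* and *Uchl5* had -0.07 and -0.13. Of the 8 genes in the list of shuttles, *Ubqln1* alone was at least 1.5-fold higher, at 0.63 (0.53 to 0.72), against 20% of the 8103 genes. *Vcp*, the ATPase that extracts ubiquitinated proteins, had 337, 253 and 254 CPM, a ratio of -0.41 (-0.44 to -0.38). *Ubqln2* had a ratio of -0.15 and *Ubqln4* one of 0.30, with *Rad23b* at -0.10, *Ufd1* at 0.09 and *Nploc4* at 0.28. Of the regulators, *Nfe2l2* had 252, 209 and 104 CPM, a ratio of -1.28 (-1.33 to -1.24). *Nfe2l1* had 101, 79.9 and 114 CPM, with ratios of -0.33 (-0.40 to -0.27) at 1 hour and 0.17 (0.11 to 0.23) at 4 hours. *Ddi2* and *Ngly1*, which process the *Nfe2l1* protein, had 0.30 and -0.01 at 4 hours.

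Other complexes with many subunits were set beside these values. The COP9 signalosome and eIF3 have subunits related to those of the lid, and complex I is the first enzyme of the respiratory chain. Their median log2 ratios of LP4 over UI were -0.13 (10 genes), -0.19 (12 genes) and -0.44 (36 nuclear genes), against 0.31 in the core and -0.04 in the cap. The core median is 0.24 without *Psma8*. In cells with 5000 to 10000 UMIs it was -0.03, and the other complexes were not computed there. At least 1.5-fold lower were 3 of 10, 1 of 12 and 14 of 36 genes, and 1 of 35 proteasome genes, against 23.1% of the 8103 genes. At least 1.5-fold higher were 0 of 10, 0 of 12 and 2 of 36 genes, and 3 of 35 proteasome genes, against 20% of the 8103 genes.

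The depth of the cells moved with these results. Within UI, LP1 and LP4, the summed core level was higher in cells with 10000 to 20000 UMIs than in those with 2500 to 5000. In LP4 it was 1515 CPM in cells with 2500 to 5000 UMIs, 1729 in those with 5000 to 10000, 2004 in those with 10000 to 20000 and 2110 above that. The libraries were therefore also compared in cells with 5000 to 10000 UMIs alone, an alternative chosen after the data were seen, with 2604 cells in UI, 2529 in LP1 and 1426 in LP4. In these cells the core sum was 1778, 1973 and 1729 CPM and the cap sum 2141, 1937 and 1817 CPM. The summed log2 ratio of LP1 over UI was 0.15 (0.13 to 0.17) for the core and -0.14 (-0.16 to -0.12) for the cap. For LP4 over UI it was -0.04 (-0.07 to -0.01) for the core and -0.24 (-0.26 to -0.21) for the cap. Thus the higher core level at 4 hours was not present in cells of this depth, whereas that at 1 hour was smaller but present. The band took unlike parts of the libraries. Cells with 2500 to 5000 UMIs were 42.5% of UI, 6.06% of LP1 and 3.51% of LP4. Those with 10000 to 20000 were 9.21%, 39.4% and 50.7%. The band therefore set deeper cells of UI against shallower cells of LP4. In cells with 5000 to 10000 UMIs the core level relative to the cap was higher in the treated libraries, at 0.830 in UI, 1.02 in LP1 and 0.952 in LP4. For 8094 genes that reached 10 CPM in these cells, the median was -0.06 for LP1 over UI and -0.15 for LP4 over UI. In cells with 2500 to 5000 UMIs the core relative to the cap was 0.895 in UI, 1.08 in LP1 and 0.828 in LP4. Under 2500 UMIs it was 0.951, 0.625 and 0.646, and at 10000 to 20000 UMIs 0.819, 0.962 and 0.980. The higher place of LP4 thus did not hold below 5000 UMIs. At 2500 to 5000 UMIs the summed core ratio of LP4 over UI was -0.12 (-0.21 to -0.02), from 164 LP4 cells.

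**Figure D4:**
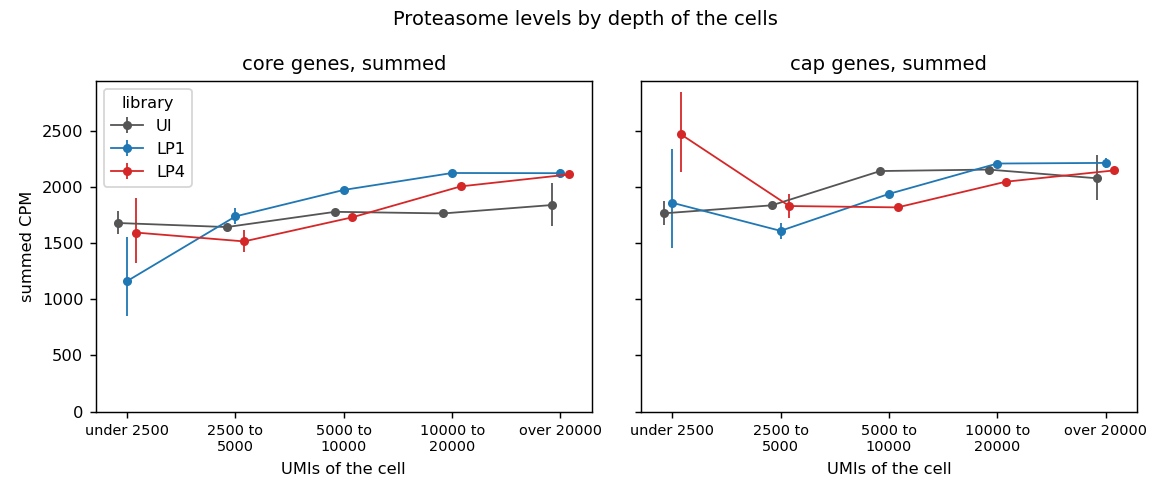
Summed CPM of the core and cap genes in cells grouped by their total UMIs, for UI, LP1 and LP4, with exact Poisson 95% intervals that cover counting error only. In cells with 5000 to 10000 UMIs the LP4 core level (1729 CPM) lay just below that of UI (1778 CPM), and the points under 2500 UMIs rest on 22 to 318 cells.

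Single genes held their place at like depth to a different extent. For LP4 over UI, 27 of 35 members kept the sign they had over all cells. *Psma2* had 0.62 (0.52 to 0.72) in place of 0.82, *Psmb7* 0.46, *Psmd11* 0.49, *Psmc6* 0.41 and *Psmd14* 0.35. Others lost more of their difference, with *Psma3* at 0.15, *Psmb2* at 0.30 and *Psmd5* at 0.38 (0.10 to 0.65). *Psmb3* changed sign to -0.25 (-0.37 to -0.12), as did *Psmd6* to -0.23 (-0.36 to -0.10) and *Psmd8* to -0.20 (-0.26 to -0.15). *Psmb6* (-0.05), *Psmd1* (-0.07), *Psmd3* (-0.04), *Psmd10* (-0.08) and *Psma8* (-0.50) lay below UI with intervals that crossed 0. On the lower side, *Psmd4* had -0.92 (-1.02 to -0.81) and *Psmc3* -0.82 (-0.93 to -0.71). *Psmb5* moved most among the catalytic genes, to -0.64 (-0.76 to -0.53), and *Psma4* reached -0.56. There, 5 members (*Psmd4*, *Psmc3*, *Psmc5*, *Psmd12* and *Psmb5*) were at least 1.5-fold lower and 1 (*Psma2*) higher, against 30.1% and 20.3% of the 8094 genes in these cells. For LP1 over UI 1 (*Psmd4*, at -0.72) was lower and 0 higher by this fold, against 5.44% and 4.61%, and for LP4 over LP1 1 (*Psmb5*) was lower and 0 higher, against 24.2% and 18.2%. The medians of LP1 over UI in these cells were 0.14 in the core and -0.14 in the cap, against -0.06 over the 8094 genes. Of the genes higher at 1 hour, *Psmb2* had 0.55, *Psma2* 0.53 and *Psmd3* 0.25 there. *Psmb5* fell from 0.47 to 0.14 (0.06 to 0.23) and *Psmd14* from 0.30 to 0.08 (-0.02 to 0.17). *Psmb6* changed sign at 1 hour, from 0.04 to -0.10 (-0.16 to -0.04). *Psmb1* had 0.40 (0.33 to 0.47) at 1 hour and -0.03 (-0.12 to 0.05) at 4 hours. In cells with 10000 to 20000 UMIs the summed core ratio of LP4 over UI was 0.18 (0.16 to 0.21), so the result differed between depths. The part of depth, and of the RNA content that comes with it, in the ratios over all cells was not tested further.

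The levels were also compared within clusters of cells. Clustering of the 15806 kept cells, without use of any proteasome gene, gave 9 clusters called A to I by size. B, C, D and I were macrophage-like, F dendritic cell-like and G neutrophil-like by their markers. A (led by *Mgll*, *Mmp12*, *Ctsk* and *Itgax*), E (led by *Hist1h1b* and cell cycle genes) and H (low in UMIs) were left unnamed. *Itgax* is on the list of dendritic cell markers, which kept A from the macrophage name. The lack of a name does not show that A holds other cells. The share of cells in C was 26.5% in UI and 7.02% in LP4, and that in B 17.1% and 38.4%. Genes leading C included *Egr3*, *Id3* and *Fosb*, and those leading B *Cxcl5*, *Il4ra* and *Cxcl3*. The study reports *Id3* and *Fosb* as lower and *Cxcl3* and *Il4ra* as higher in LP4. Whether a cluster holds the same kind of cells in each library was not tested. Clusters A to F held at least 50 cells in every library and were compared. The summed core was higher in LP4 than in UI in 6 of 6 clusters, with log2 ratios from 0.13 (cluster C) to 0.33 (cluster F). It was higher in LP1 than in UI in 6 of 6, from 0.18 to 0.31. The cap was lower in LP4 than in UI in 4 clusters and higher in 2, from -0.09 to 0.13. Depth differed between libraries within these clusters too. With clusters at a resolution of 0.8, the summed core ratio of LP4 over UI was above 0 in the 7 clusters compared, from 0.01 to 0.28. The lowest, in a macrophage-like cluster of 2512 cells, had an interval of -0.04 to 0.05. The highest lay in a cluster of 231 cells that was named stromal-like by its markers. No cluster was named dendritic cell-like at this resolution, so the name given to F depended on the resolution.

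Some single genes held 1 direction in all of clusters A to F and others did not. For LP4 over UI, *Psma2*, *Psma3*, *Psma6*, *Psmd11* and *Psmd14* had intervals wholly above 0 in 6 of 6 clusters, and *Psmd4* and *Psmc3* had intervals wholly below 0 in 6 of 6. The share of all genes with such intervals in 6 of 6 clusters was not computed. Over all cells, 40.9% of the 8103 genes had intervals wholly above 0 in this comparison and 48.5% wholly below. The ratio of *Psma2* lay between 0.61 (cluster C) and 1.22 (cluster F), and that of *Psmd4* between -0.83 (cluster A) and -0.61 (cluster F). *Psmb5* was not of one direction at 4 hours, with ratios from -0.22 to 0.18, and at 1 hour it was higher in 6 of 6 clusters, from 0.08 to 0.56. In UI the core sum was lowest in cluster C, at 1459 CPM, and 1863 CPM in cluster D, and the cap sum was 1525 and 2303 CPM in these clusters. Cluster C held a median of 3623 UMIs per cell in UI and cluster D 7007.

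**Figure D5:**
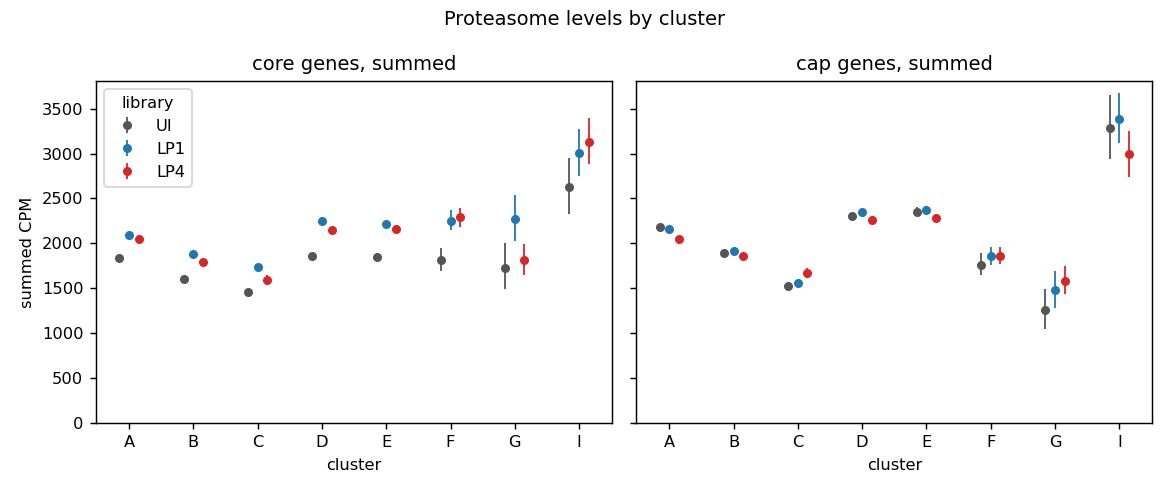
Summed CPM of core and cap genes by cluster in UI, LP1 and LP4, with exact Poisson 95% intervals that cover counting error only; cluster H, with 67 cells, is left out. In clusters A to F the core level was higher in LP1 and LP4 than in UI, and the cap levels of the libraries lay closer together.

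The spread between cells, which includes the counting error of each cell, was wider than the difference between libraries. The share of a cell's UMIs from core genes had a median of 0.164% in UI (quartiles 0.122% and 0.212%), 0.194% in LP1 (0.153% and 0.243%) and 0.185% in LP4 (0.145% and 0.229%). For cap genes the medians were 0.195%, 0.199% and 0.196%. With every cell thinned to 2000 UMIs, which left out 122, 13 and 45 cells, the mean core share was 0.172%, 0.202% and 0.189% and the mean cap share 0.199%, 0.199% and 0.198%.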

How the data were processed

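RNA of single BMDMs was counted in 3 libraries, UI, LP1 and LP4. The authors made the deposited counts with Cell Ranger (7.1.0 per the submitters' processing notes) on the mouse mm10 reference. They are UMI counts per gene and cell barcode without normalization. Whether intronic reads were counted is not given in the sources used here. The study's stated filters for cells left 15806 of 16281 barcodes, more cells than the study states, and the difference was not resolved here. No doublet caller was run, and an alternative left out the 5% of cells with the most UMIs. CPM was computed from the UMIs summed over a library's kept cells. Levels carry exact Poisson intervals and log2 ratios exact conditional binomial ones, both at 95%. The sums rest on 35688939 UMIs in UI, 52475723 in LP1 and 61402275 in LP4. With 1 library per condition, no test was made, and a gene was counted as past the limit at 1.5-fold.

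Members, gene lists and tests were chosen with earlier results of these data known. The genes named are the 3 catalytic subunits, the lowest and highest ratios within core and cap (3 at 4 hours and 2 at 1 hour), and genes of the pathway lists, of which some are not reported here. Other members named were chosen after their values were seen. *Paaf1* and 1 eIF3 gene were not analysed here.

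Clustering used the 2000 most variable of 5244 genes that had at least 200 UMIs and differed by under 1.5-fold between libraries, centred within each library, 30 principal components, 20 neighbours and Leiden at a resolution of 0.5. A cluster was named if at least 3 markers of a type were among its 10 leading genes. Failing that, it was called macrophage-like if at least 3 macrophage markers were each seen in at least 50% of its cells. This held only where no other type had more markers among the leading genes. The alternative with macrophage-like clusters alone thus left out A (31.4% of cells) and E (6.03%). Gene positions are those of GENCODE on GRCm38. In simulated data, counts were drawn from the Poisson model that the intervals assume. There, 100% of 200 genes changed by at least 1.5-fold, each with at least 200 UMIs, had the right direction in each comparison. The intervals held the true value for 95.5%, 95.7% and 95.6% of 15154 genes. This checks the calculation only, and not the spread between cells or cultures or the direction of smaller ratios. Alternatives covered cell filters, scaling, depth, member filters and resolution. The member filter of at least 200 UMIs kept every member, since the least counted has 231, so it could not change a value. The filter of at least 1 UMI in both libraries could not change comparisons with UI, where *Psmb11* had 0 UMIs. TMM factors came from edgeR 4.0.16 in R 4.3.3, clusters from leidenalg 0.10.2, igraph 0.11.9 and scikit-learn 1.9.0, plots from matplotlib 3.10.9, and all else from Python 3.11.15 with pandas 2.3.3, scipy 1.17.1 and numpy 2.4.6.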

Additional observations from a re-analysis of the deposited data

How the results depend on the processing

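No condition has a replicate, so the values lack a spread between cultures, and no library could be left out. No paired analysis was possible because each condition is 1 library and no result comes from a test. The alternatives with cells of 5000 to 10000 UMIs and without *Psma8* were chosen after seeing the data. TMM and median-of-ratios scaling shifted all log2 ratios of LP4 over UI by 0.15, those of LP4 over LP1 by 0.10 and 0.12, and those of LP1 over UI by 0.05 and 0.03. Of 217 recomputed values, 146 were called the same, 58 moved and 13 reversed. Counts were called the same within 1.5 times, and sums and catalytic pairs within their counting interval. A median was judged by a band made from the bounds of its members or clusters, which is no counting interval of the median. For the core median of LP4 over UI this band ran from 0.11 to 0.41, against 0.17 to 0.20 for the core sum. Some of the 146 were fixed in advance, because member filters by UMIs mostly left the members unchanged.

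The core median of LP1 over UI (0.30) was 0.21 with cells thinned to 2000 UMIs and 0.14 in cells with 5000 to 10000 UMIs, where the cap median (0.07) was -0.14 and the summed cap ratio -0.14. The core median of LP4 over UI (0.31) was 0.46 under TMM and 0.46 under median of ratios, and it changed sign to -0.034 in cells with 5000 to 10000 UMIs, as did the summed core ratio, at -0.040. The cap median (-0.04) was 0.10 under TMM, 0.11 under median of ratios and -0.24 in cells with 5000 to 10000 UMIs. The summed cap ratio (-0.02) changed sign to 0.026 in macrophage-like clusters, 0.13 under TMM and 0.13 under median of ratios. For LP4 over LP1, the core median (-0.01) was 0.083 under TMM, 0.11 under median of ratios and -0.19 in cells with 5000 to 10000 UMIs. The cap median (-0.09) changed sign to 0.0071 under TMM, 0.031 under median of ratios and 0.011 with thinned cells. Under TMM and median of ratios, the summed ratios changed sign to 0.039 and 0.063 for the core and to 0.052 and 0.075 for the cap.

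Members at least 1.5-fold lower in LP1 than in UI (1) numbered 0 in macrophage-like clusters, 0 under TMM, 0 under median of ratios and 2 with thinned cells, and those higher (2) numbered 0 in cells with 5000 to 10000 UMIs. With thinned cells, 1 of the 2 lower was *Psma8*, the least counted member, at -0.67. For LP4 over UI, those lower (1) numbered 2 without mitochondrial and ribosomal protein genes, 2 with means over cells and 5 in cells with 5000 to 10000 UMIs. Those higher (3) numbered 6 in macrophage-like clusters, 10 under TMM, 10 under median of ratios and 1 in cells with 5000 to 10000 UMIs. The share of all genes past 1.5-fold was not computed in macrophage-like clusters, with thinned cells or under these scalings. For LP4 over LP1, 1 was lower (against 0) and 0 higher (against 1) in cells with 5000 to 10000 UMIs, and 2 were higher with thinned cells. Of those 2, 1 was again *Psma8*, at 0.59.

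From UI to LP4, *Psmb5* over *Psmb8* differed by -0.026 with thinned cells and -0.71 in cells with 5000 to 10000 UMIs. *Psmb6* over *Psmb9* differed by -1.27 in macrophage-like clusters, -1.22 with thinned cells and -1.76 in cells with 5000 to 10000 UMIs, and *Psmb7* over *Psmb10* by 0.34 in the last. The scalings shift all genes alike. Thinning and the limit to 5000 to 10000 UMIs leave fewer UMIs and so wider counting intervals. Why the ratios themselves moved in these settings was not tested. Of the 35 members, 19 kept their direction for LP4 over UI under all 9 cell and scaling alternatives, among them *Psma2* (0.62 to 0.97) and *Psmd4* (-0.92 to -0.61).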

Other observations

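The highest proteasome levels lay in a small macrophage-like cluster led by *Ddit3*, a stress gene, with 18 cells in UI, 17 in LP1 and 12 in LP4. Its core genes summed to 2625 CPM (2322 to 2956) in UI, 3003 (2748 to 3274) in LP1 and 3133 (2881 to 3401) in LP4. Its cap genes summed to 3281 CPM (2942 to 3649), 3390 (3119 to 3678) and 2990 (2744 to 3252). The highest core and cap sums of clusters A to F in UI were 1863 and 2353 CPM. The cells held a median of 5414 UMIs in UI, near the 5133 of the whole library. In the neutrophil-like cluster, with 32, 25 and 28 cells, the core summed to 1731, 2271 and 1819 CPM and the cap to 1253, 1476 and 1585 CPM. These clusters have under 50 cells in each library and were not compared between libraries.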
